A study of Mus musculus with 12 samples.

Results

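CD62Llo PSGL1hi cells are splenic CD4 T cells that have lost most surface CD62L, the lymph node homing selectin, and have kept PSGL1, a selectin ligand encoded by Selplg. They were compared with naive CD4 T cells. The members are the 3 arrays titled as CD62Llo PSGL1hi and the 3 naive arrays, 6 of the 12 arrays in all, and the comparison is described over 18193 named genes. All cells came from female MRL/Faslpr mice, which develop lupus-like disease and carry a defective allele of the death receptor gene Fas, in the controls as well as in the effector cells. CD62Llo PSGL1hi cells were gated as TCRb+ CD4+ B220- CD44+ and came from mice aged 16 to 24 weeks. Naive cells were gated as TCRb+ CD4+ B220- CD62Lhi CD44lo, with no gate on PSGL1, and came from mice aged 6 to 8 weeks, so population and age cannot be told apart. The titles call the arrays of a population technical replicates, and the design text speaks of separate sorts. A p-value here therefore speaks only of the spread among these arrays, which may be technical.

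Naive CD4 T cells circulate between blood and lymph nodes by means of CD62L and the chemokine receptor CCR7. After contact with antigen they raise CD44, lose CD62L and CCR7, and can acquire helper programmes that differ in cytokines and in homing. Th1 cells make interferon gamma under the transcription factor T-bet, follicular helper cells enter B cell follicles through CXCR5, and regulatory T cells carry FOXP3 and restrain the others. In lupus-prone mice such activated CD4 cells accumulate with age.

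Every value is a ratio, the signal of a probe set over its median on the 12 arrays, so a ratio compares arrays for 1 gene and says nothing of a gene's level against another gene. Differences are log2 values of CD62Llo PSGL1hi minus naive cells with their standard error, from 3 arrays each. The value of a gene is that of 1 probe set, and other probe sets of it can differ in size and call, as given beside several genes. A gene was called higher or lower at a Benjamini-Hochberg adjusted p under 0.05 in limma over all 18193 genes. Signal over background is unknown, and the number of arrays limits the precision. Array medians of the ratio ran from 0.967 to 1.022. The median SD of log2 values between replicate arrays was 0.114 in CD62Llo PSGL1hi and 0.104 in naive cells.

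RNA of the gate gene Cd44 had ratios of 1.16, 1.12 and 1.03 in CD62Llo PSGL1hi cells and of 0.0842, 0.0779 and 0.0752 in naive cells, a 13.9-fold difference (3.80 ± 0.12, adjusted p = 2.11e-12). Of 3 other Cd44 probe sets 2 gave the same call, and the remaining one differed by -0.19. Selplg had ratios of 0.977, 0.906 and 1.09 in CD62Llo PSGL1hi and 1.15, 1.12 and 1.02 in naive cells. The groups overlapped, and the difference of -0.15 ± 0.12 was not called (adjusted p = 0.419). Fas RNA differed by 0.16 ± 0.14 and was not called either (adjusted p = 0.5). Of 8 T lineage genes 4 were called higher, each by less than 2-fold: Cd4 by 0.65 ± 0.10, Cd247 by 0.41 ± 0.11, Cd3g by 0.40 ± 0.12 and Cd3e by 0.31 ± 0.09. On its more variable probe set Cd4 differed by 0.43 (adjusted p = 0.0815), and the other 3 calls were lost on leaving out single arrays, with adjusted p up to 0.223 for Cd247 over all alternatives.

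CD62Llo PSGL1hi cells differed from naive cells in 3774 of the 18193 genes, or 20.7%. Of these 1931 were higher (10.6% of genes) and 1843 lower (10.1%). The counts of gene lists below are read beside these shares. On the deposited scale the rises were larger than the falls. At least 2-fold were 708 rises (3.89%) and 272 falls (1.50%), at least 8-fold were 119 rises and 17 falls, and at least 32-fold were 22 rises and no fall. After quantile normalization 469 rises and 299 falls were past 2-fold. The 15 largest rises named below then ran from 3.04 to 5.29 and the 15 largest falls from -4.66 to -2.59. How much larger the rises were thus depends on the scaling. The median called rise was 0.77 and the median called fall -0.52, against a median of -0.07 over all genes. In 7363 genes (40.5%) the 3 arrays of one population did not overlap those of the other, and 3748 of the called genes were among them.

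**Figure D1:**
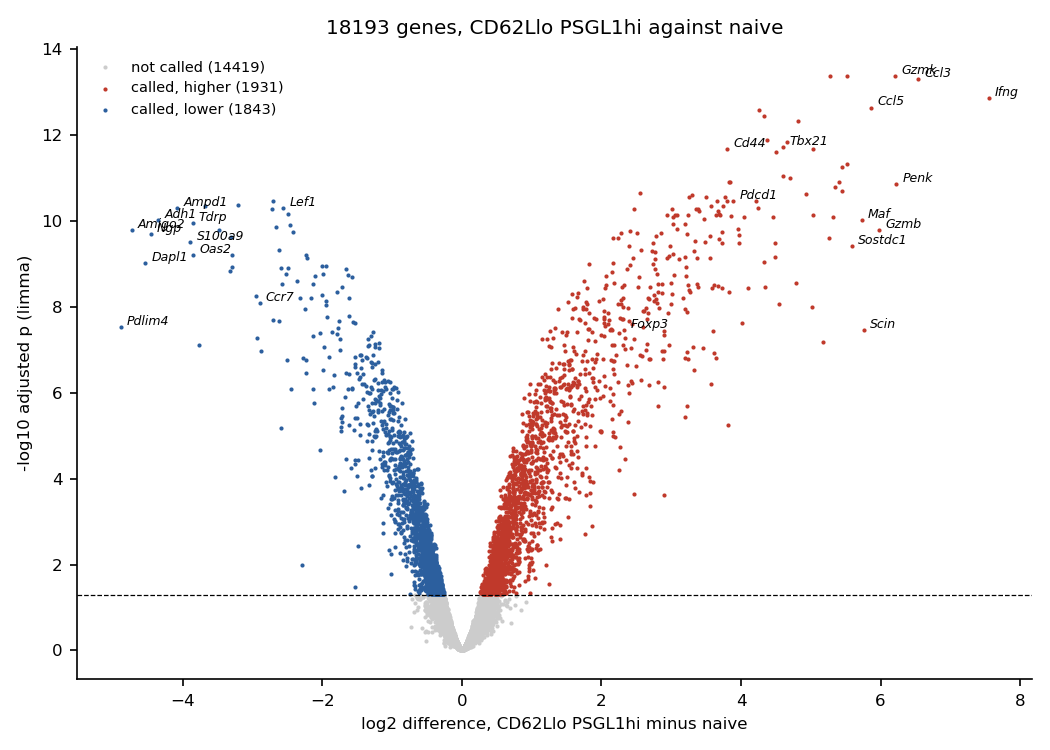
Each point is 1 of 18193 genes, with the log2 difference of CD62Llo PSGL1hi minus naive cells on the x axis and minus log10 of the limma adjusted p on the y axis; the dashed line marks an adjusted p of 0.05. On the deposited scale the 1931 called rises reach further from 0 than the 1843 called falls, with Ifng at 7.55 and Pdlim4 at -4.89 at the ends.

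The largest rise was that of Ifng, the gene of interferon gamma. Its ratios were 2.82, 2.48 and 2.12 in CD62Llo PSGL1hi cells and 0.0144, 0.0123 and 0.0128 in naive cells, a 187-fold difference (7.55 ± 0.18, adjusted p = 1.35e-13). The arrays of the populations lay far apart, and the naive arrays were the lowest of the 12. Ccl3, a chemokine that draws inflammatory cells, had ratios of 3.48, 2.93 and 3.05 against 0.0277, 0.0337 and 0.0412, a rise of 6.54 ± 0.14. Ccl5, another inflammatory chemokine, had ratios of 2.69, 2.88 and 2.82 against 0.0475, 0.0516 and 0.0446, a rise of 5.87 ± 0.15. In both chemokine genes all 3 CD62Llo PSGL1hi arrays agreed to within a narrow range far above the naive ones. Penk, which encodes the precursor of the enkephalin opioid peptides, had ratios of 2.48, 1.58 and 2.12 against 0.0297, 0.0275 and 0.0243 and rose by 6.22 ± 0.22. The granzyme genes Gzmk and Gzmb, whose proteases are stored in cytotoxic granules, rose by 6.21 ± 0.13 and 5.98 ± 0.28. The 15 largest rises ran from 5.34 to 7.55, with adjusted p from 4.09e-14 to 3.43e-08. After quantile normalization they ran from 3.04 to 5.29 and all kept their calls, so the size of these folds depends on how the arrays were scaled.

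The other largest rises belonged to several functions. Scin, an actin severing protein, rose by 5.76 ± 0.42, with ratios of 2.05, 0.951 and 1.26 that varied more among the CD62Llo PSGL1hi arrays than those of the chemokine genes. Maf, a transcription factor that drives Il4, Il10 and Il21 in helper cells, rose by 5.73 ± 0.25, and 4 of 5 other probe sets gave the same call with values between 0.12 and 6.22. Sostdc1, a secreted antagonist of BMP and Wnt ligands, had ratios of 1.5, 3.84 and 1.42 against 0.0455, 0.0387 and 0.0418 and rose by 5.59 ± 0.28. In both genes every CD62Llo PSGL1hi array lay above every naive array, as the choice of the largest changes required. Cxcr3, the receptor that brings Th1 cells into inflamed tissue, rose by 5.52 ± 0.12. The calcium-binding S100a6 and S100a4 rose by 5.51 ± 0.18 and 5.40 ± 0.19. Nrn1, a neuritin linked to anergic and regulatory cells, rose by 5.45 ± 0.20. Bhlhe40, a transcription factor that limits Il10 and supports Ifng, rose by 5.44 ± 0.18, and Ctla2a, a cysteine protease inhibitor, rose by 5.34 ± 0.19.

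The largest falls were of genes at ratios near 1 in CD62Llo PSGL1hi cells and far above 1 in naive cells. Pdlim4, a cytoskeletal adaptor, had ratios of 0.699, 0.807 and 0.831 against 24.1, 25 and 20.2 in naive cells and fell by 4.89 on the log2 scale (SE 0.35, adjusted p = 2.93e-08). Amigo2, an adhesion molecule, had ratios of 0.909, 0.91 and 0.762 against 22.7, 22.6 and 23.1 (-4.73 ± 0.22). Its other probe set differed by -0.28 and was not called. Dapl1, a gene high in naive and memory precursor T cells, had ratios of 0.808, 0.826 and 1.03 against 22.4, 23.2 and 16.4 (-4.53 ± 0.24). Here, too, the populations did not overlap, which the choice of these genes required. The enzymes Adh1 (-4.35 ± 0.19), an alcohol dehydrogenase, and Ampd1 (-4.08 ± 0.17), an AMP deaminase, followed, with Tdrp (-3.86 ± 0.17), the interferon-induced Oas2 (-3.85 ± 0.20), the adenylate cyclase Adcy6 (-3.68 ± 0.15), the glutamyl transferase Ggt5 (-3.48 ± 0.16) and Lypd6b (-3.30 ± 0.16).

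The remaining 5 of the 15 largest falls were neutrophil granule genes. Ngp, a neutrophil granule protein, had ratios of 1, 0.997 and 0.616 against 18.9, 17.9 and 19.4 (-4.46 ± 0.21). S100a9 and S100a8, the calprotectin subunits, differed by -3.89 ± 0.19 and -3.76 ± 0.29, the iron binder Ltf by -3.32 ± 0.19 and Lcn2, a siderophore binder, by -3.30 ± 0.17. Camp, the cathelicidin gene, differed by -3.21 ± 0.13. Of 25 macrophage, monocyte and neutrophil markers 9 were lower, 2 higher and 14 not called, with a median of -0.22. Their summed ratio was 23.5 to 27.5 in CD62Llo PSGL1hi cells and 81.5 to 86.8 in naive cells. This sum includes Ngp, S100a8, S100a9, Ltf and Camp, so it is not separate from their falls and does not describe the list as a whole. Over 7 granule genes put together after their values were seen (Ngp, Camp, Ltf, Lcn2, S100a8, S100a9 and Chil3), the sum was 5.07 to 7.80 in CD62Llo PSGL1hi and 71.0 to 81.7 in naive arrays. It was 5.27 to 6.89 in CD62Lhi PSGL1hi and 5.36 to 9.62 in CD62Llo PSGL1lo arrays, so the naive arrays alone stood high. No marker was at 0, since the values are ratios. The part of these markers in the genes lower in CD62Llo PSGL1hi cells was not tested. In such bulk samples fewer cells of a type and less RNA per cell cannot be told apart.

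**Figure D2:**
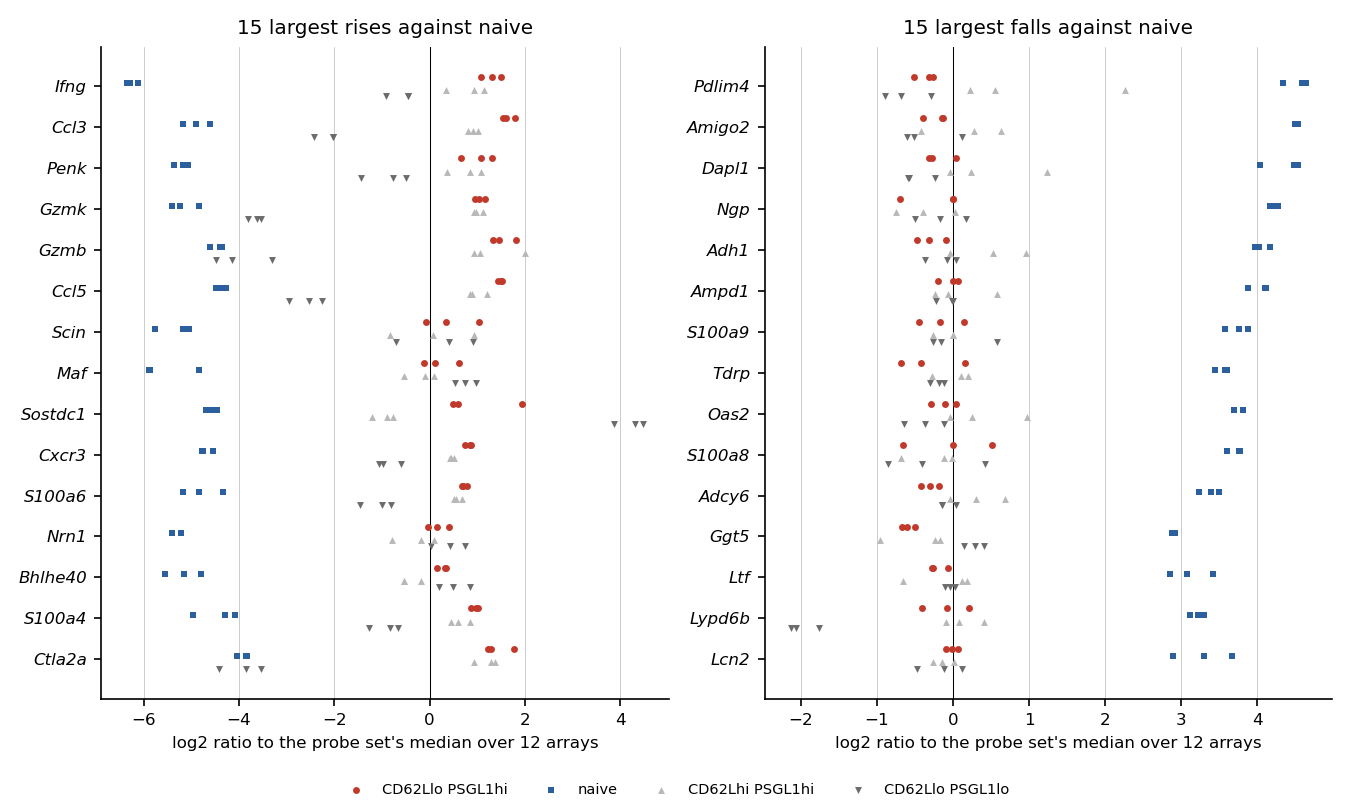
Log2 ratios of the 15 largest rises and the 15 largest falls on each of the 12 arrays, 3 points per population. Genes were picked only where the red CD62Llo PSGL1hi points and the blue naive points do not overlap. The naive points of the neutrophil genes Ngp, S100a8, S100a9, Ltf and Lcn2 lie above those of the other populations.

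Genes of the naive state were lower as a group. Of 27 naive and quiescence genes 22 were lower and none higher, with a median of -1.61, where 10.1% of all genes were lower. Lef1, a transcription factor of the Wnt pathway that maintains naive T cells, had ratios of 0.646, 0.656 and 0.57 against 3.82, 3.37 and 3.83 in naive cells and fell by 2.56 on the log2 scale (SE 0.10). Ccr7, the lymph node homing receptor, had ratios of 0.858, 0.954 and 0.915 against 7.16, 6.8 and 6.35 (-2.90 ± 0.19). The chromatin organiser Satb1 (-3.29 ± 0.18), the repressor Bach2 (-2.42 ± 0.11), the kinase Txk (-2.60 ± 0.14) and the actin crosslinker Actn1 (-2.94 ± 0.18) also fell. The falls were smaller on other probe sets of Actn1, at -1.02 and -0.74, and on 1 of Bach2, at -0.59. So did S1pr1, the receptor for exit from lymphoid organs (-1.65 ± 0.22), and Klf2, the factor that controls S1pr1 (-1.07 ± 0.15). In all of these genes the 2 populations did not overlap. Il7r, the survival receptor of naive and memory cells, had ratios of 1.28, 1.41 and 1.11 against 1.09, 1.02 and 0.975 and was not called (0.29 ± 0.13, adjusted p = 0.139). It passed the threshold with a replicate block (adjusted p = 0.0488) and with array weights (adjusted p = 0.0373).

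Th1 and cytotoxic genes moved the other way. Of 29 such genes 21 were higher and none lower, 20 of them by at least 2-fold, and the median was 1.69, where 10.6% of all genes were higher. Tbx21, which encodes T-bet, had ratios of 1.86, 1.66 and 2.1 against 0.0819, 0.0765 and 0.0728, a rise of 4.60 ± 0.14. Eomes, the related factor of cytotoxic and memory cells, had ratios of 2.2, 1.82 and 2.1 against 0.109, 0.164 and 0.175, a rise of 3.80 ± 0.15. The CD62Llo PSGL1hi arrays lay more than 10-fold above the naive arrays in both. Nkg7, a granule membrane protein, rose by 5.28 ± 0.11. Prdm1, the gene of Blimp-1, rose by 3.24 ± 0.14 (ratios 2.45, 2.08 and 2.05 against 0.237, 0.224 and 0.234), and Fasl, the ligand of Fas, by 3.64 ± 0.16. The receptor chain Il12rb1 rose by 2.86 ± 0.13 and Il18rap, a chain of the interleukin 18 receptor, by 2.77 ± 0.15. Il12rb2, which pairs with Il12rb1 and was named after its value was seen, differed by -0.31 ± 0.11 and was not called (adjusted p = 0.0667). Stat4, which acts below these paired chains, rose by 0.77 ± 0.15.

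The cytotoxic genes did not move as 1 block. Prf1, the gene of perforin, had ratios of 1.04, 0.982 and 1.09 against 0.99, 0.981 and 0.977, a difference of 0.07 ± 0.09 (adjusted p = 0.621). The probe sets of Prf1 disagreed: with the one of the highest SD the difference was 2.51 (adjusted p = 5.88e-08). Gzma, picked out after its value was seen because Gzmb and Gzmk rose, had ratios of 0.813, 0.869 and 1.81 against 1.09, 0.991 and 1.01 and differed by 0.08 ± 0.24 (adjusted p = 0.862). Its arrays overlapped. Of 13 NK receptor genes 4 were higher and 1 lower, with a median of 0.12, beside 10.6% and 10.1% of all genes. The inhibitory receptor Klrg1 rose by 3.83 ± 0.23 and the adhesion receptor Crtam by 2.67 ± 0.17. Klrc1 (NKG2A) rose by 3.82 ± 0.43 and its partner Klrd1 (CD94) by 1.83 ± 0.29. A second Klrc1 probe set differed by 0.19 and was not called. Of 8 CD8 T cell and NK cell markers 1 was higher, which was Eomes, and 2 were lower, Cd8a (-0.57 ± 0.10) and Cd8b1 (-0.67 ± 0.14). Their summed ratio was 8.36 to 9.79 in CD62Llo PSGL1hi and 7.97 to 8.56 in naive cells. Of 4 other Cd8a probe sets, which ran from -0.75 to -0.16, 1 shared the call.

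Cytokine genes rose selectively. Of 21 measured, 7 were higher and 2 lower, with a median of 0.19, where 10.6% of all genes were higher and 10.1% lower. Il10, the gene of an inhibitory cytokine, had ratios of 2.12, 2.23 and 2.03 against 0.121, 0.0993 and 0.0899, a rise of 4.37 ± 0.13. Il4, the Th2 and B cell help cytokine, had ratios of 1.18, 2.82 and 1.35 against 0.194, 0.161 and 0.184, a rise of 3.20 ± 0.26. The second of these arrays stood above the other 2, and all 3 lay above the naive ones. Il21, a cytokine of follicular helper cells, rose by 1.42 ± 0.16, and by 5.72 on its other probe set. Il2, the T cell growth factor, had ratios of 0.919, 1.24 and 1.36 against 0.75, 0.724 and 1.05. These arrays overlapped; the difference of 0.48 ± 0.15 was called (adjusted p = 0.0374), but after quantile normalization it had an adjusted p of 0.0795, and leaving out single arrays raised it up to 0.169. Il17a differed by -0.13 ± 0.10 and was not called, whereas 3 of 5 Th17 genes were higher: the transcription factors Rora (3.02 ± 0.14) and Ahr (2.68 ± 0.22) and the receptor Ccr6 (3.21 ± 0.18). Another Ahr probe set differed by 0.06, and of 8 other Rora probe sets 5 shared the call and 1 had an opposite call. Of 9 Th2 genes 4 were higher, among them Gata3, the Th2 transcription factor (1.00 ± 0.13), and 1 lower, the receptor chain Il4ra (-1.53 ± 0.13).

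Several genes of ligands and chemokines of effector cells rose. Of 13 TNF family ligand genes 9 were higher and none lower, with a median of 0.67, where 10.6% of all genes were higher. Tnfsf11, which encodes RANKL, rose by 3.97 ± 0.20 and by 0.66 on its other probe set, Tnfsf8 (CD30 ligand) by 1.60 ± 0.20, and Tnfsf10 (TRAIL), Tnfsf4 (OX40 ligand) and Tnfsf9 (4-1BB ligand) by 1.41 each. Cd40lg, the gene of the ligand that helper cells present to B cells, differed by -0.11 ± 0.11 and was not called. Of 17 chemokine genes 8 were higher and none lower. Besides Ccl3 and Ccl5, Ccl4 rose by 5.03 ± 0.15, the lymphotactin gene Xcl1 by 2.46 ± 0.40, and Cxcl10, a ligand of CXCR3, by 1.64 ± 0.20.

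Receptors for homing were exchanged. Of 24 chemokine and lymphocyte traffic receptor genes 12 were higher and 4 lower, beside 10.6% and 10.1% of all genes. Against the falls of Ccr7 and S1pr1 stood rises of Cxcr3, of Cxcr6, a receptor of tissue-resident cells (5.26 ± 0.25), and of Ccr2, a receptor for inflammatory monocyte chemokines (4.48 ± 0.23). Cxcr6 had ratios of 5.94, 3.6 and 5.64 against 0.102, 0.157 and 0.135, so the populations lay over 20-fold apart on every array. Cxcr5, the follicle homing receptor, had ratios of 0.954, 0.819 and 0.916 against 0.0669, 0.0676 and 0.0556 and rose by 3.82 ± 0.14. Ccr6 and the bone marrow and tissue receptor Cxcr4 (1.99 ± 0.15) rose as well. Of 30 integrin and adhesion genes 18 were higher and 4 lower, with a median of 0.45. Itgb8, an activator of TGF beta, rose by 5.32 ± 0.23, Itgae, the CD103 integrin of epithelial retention, by 5.03 ± 0.21, Itgb1 by 3.73 ± 0.17, Alcam by 2.97 ± 0.15 and Itgal, the LFA-1 chain, by 1.58 ± 0.10. For Itgb1, 3 of 5 other probe sets shared the call.

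PSGL1 binds selectins only after its sugars and tyrosines are modified. Of 19 genes for selectin ligand synthesis 5 were higher and 1 lower, with a median of 0.07. Among all genes 10.6% were higher and 10.1% lower. Gcnt1, which builds the branched core of the sugar chain, had ratios of 2.21, 1.91 and 1.82 against 0.168, 0.183 and 0.153 and rose by 3.56 ± 0.17. Fut7, the fucosyltransferase that completes the ligand, had ratios of 1.54, 1.08 and 1.38 against 0.466, 0.738 and 0.455 and rose by 1.29 ± 0.17. Neither gene overlapped between populations, while Selplg itself did. Tpst2, which sulfates tyrosines, rose by 1.01 ± 0.12, Galnt3, which starts the sugar chain, by 1.21 ± 0.18 and the sulfotransferase Chst2 by 2.93 ± 0.15. Of Chst2 and Galnt3, 2 other probe sets each did not share the call. Tpst1 was called lower (-0.36 ± 0.10), with an adjusted p of up to 0.0934 when single arrays were left out.

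**Figure D3:**
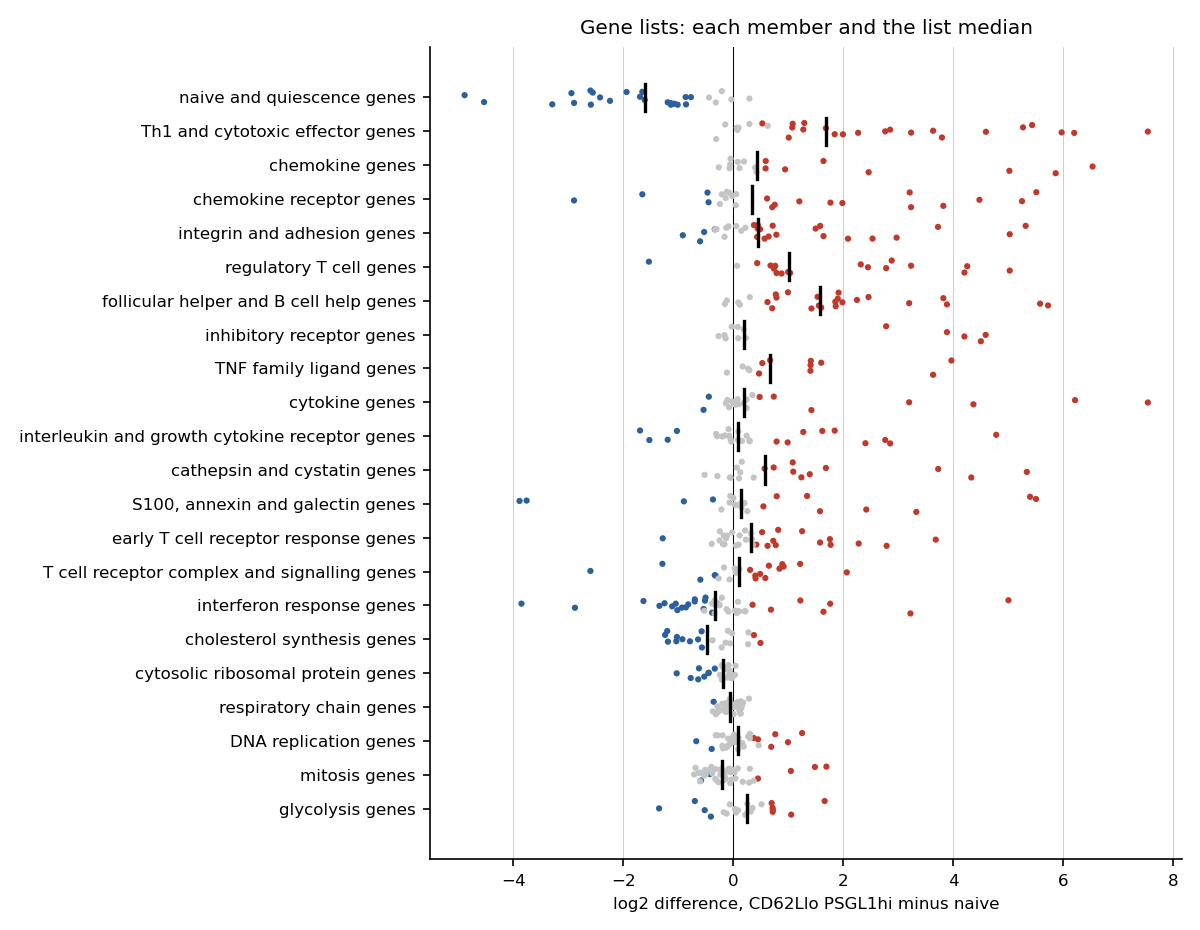
Log2 difference of CD62Llo PSGL1hi minus naive cells for each member of 22 gene lists, red where called higher, blue where called lower and grey where not called; black bars are list medians. The naive list has its median at -1.61 and the Th1 and cytotoxic list at 1.69, while the respiratory chain list lies near 0 at -0.07.

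Markers of other helper subsets rose in the same arrays. Of 26 follicular helper and B cell help genes 21 were higher and none lower, with a median of 1.58, where 10.6% of all genes were higher. Pdcd1, the gene of the receptor PD-1, had ratios of 1.33, 1.27 and 0.973 against 0.0854, 0.0765 and 0.0776, a rise of 3.89 ± 0.15. Icos, a costimulatory receptor, had ratios of 1.2, 1.38 and 0.905 against 0.242, 0.245 and 0.233, a rise of 2.25 ± 0.17. Bcl6, the factor that defines follicular helper cells, had ratios of 1.05, 1.44 and 0.971 against 0.685, 0.672 and 0.621. The arrays of all 3 genes did not overlap, but the rise of Bcl6 was small (0.79 ± 0.14, adjusted p = 4.81e-04) and its other probe set differed by 0.08 without a call. Irf4 rose by 2.46 ± 0.10, with another probe set at 0.26 and not called. Of 18 regulatory T cell genes 16 were higher and 1 lower, with a median of 1.02. Foxp3, the defining transcription factor, had ratios of 2.25, 1.62 and 1.69 against 0.375, 0.367 and 0.359, a rise of 2.32 ± 0.17. Nrp1 (4.26 ± 0.11), a semaphorin receptor, Entpd1 (4.21 ± 0.17), the ectoenzyme CD39, Ctla4 (2.78 ± 0.13), an inhibitory receptor, and Tnfrsf4 (2.45 ± 0.13), the OX40 receptor, rose with it. Gpr83, a receptor used as a regulatory T cell marker, was the lower one (-1.53 ± 0.11). These are sums over sorted cells, and whether the same cells carried Ifng, Foxp3 and Cxcr5 cannot be read from them.

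Inhibitory receptors moved in part. Of 13 genes 5 were higher and none lower, with a median of 0.19, beside 10.6% and 10.1% of all genes. Lag3, which binds MHC class II, had ratios of 1.34, 1.24 and 1.16 against 0.0517, 0.0492 and 0.0646 and rose by 4.51 ± 0.14. Havcr2, the gene of TIM-3, had ratios of 4.57, 3.15 and 3.38 against 0.149, 0.15 and 0.154 and rose by 4.60 ± 0.16. Pdcd1, Entpd1 and Ctla4 were the other 3, and the remaining 8 genes lay between -0.27 and 0.23. Of 14 anergy genes 9 were higher and 1 lower: Rnf128, the E3 ligase GRAIL, rose by 4.49 ± 0.22, while Dgka, a diacylglycerol kinase, fell by 0.77 on the log2 scale (SE 0.10). Of 14 costimulatory receptor genes 8 were higher and 1 lower, led by Slamf7 (2.74 ± 0.13), and Cd28 rose by 0.68 ± 0.11.

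T cell receptor signalling genes went in both directions. Of 23 genes 11 were higher and 5 lower, with a median of 0.11, where 10.6% of all genes were higher and 10.1% lower. The phosphatase Ptpn22, which damps the receptor, rose by 2.07 ± 0.12, the adaptor Sla by 1.22 ± 0.14, and the kinases Zap70 and Fyn by 0.92 ± 0.12 and 0.84 ± 0.12. Of 2 other Zap70 probe sets, 1 was at -0.09 and not called. Txk and Rasgrp2 (-1.29 ± 0.11), an exchange factor for Rap1, fell. Of 32 early response genes 13 were higher and 1 lower, with a median of 0.33. Nfatc1 rose by 2.28 ± 0.11, the survival gene Ier3 by 3.69 ± 0.18, Rgs1 by 2.79 ± 0.16, Spry1 by 1.77 ± 0.12, Egr2 by 1.76 ± 0.14 and the phosphatase Dusp1 by 1.58 ± 0.11. The lower one was Myc, named after its value was seen, with ratios of 0.906, 0.939 and 1.01 against 2.58, 2.19 and 2.19 (-1.28 ± 0.14). Of 27 cytokine receptor genes 9 were higher and 4 lower. The decoy receptor Il1r2 rose by 4.79 ± 0.28, Il10ra by 2.41 ± 0.13 and Il15ra by 1.62 ± 0.11. Other Il10ra probe sets were at 0.80 and at 0.17, the latter not called, and the other Il15ra probe set was at 0.47.

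Death, protease and S100 genes held further large rises. Casp1 and Casp4, the inflammatory caspases, rose by 3.36 ± 0.18 and 3.35 ± 0.16. Pmaip1, the gene of the death promoter NOXA, had ratios of 1.72, 1.03 and 0.968 against 0.0621, 0.0648 and 0.0511 and rose by 4.34 ± 0.26, whereas Bcl2, the survival gene, had ratios of 0.922, 0.951 and 0.988 against 1.77, 1.65 and 1.82 (-0.87 ± 0.10). Of 14 Bcl2 family genes 4 were higher and 2 lower, with a median of 0.03, so the list as a whole was centred near 0. Among all genes 10.6% were higher and 10.1% lower. Of 19 cathepsin and cystatin genes 10 were higher and none lower, with a median of 0.57. Cst7, the cystatin F gene that controls granule proteases, rose by 4.33 ± 0.11, Ctla2b by 3.73 ± 0.22, Ctsw by 1.69 ± 0.12 and Ctsb by 1.39 ± 0.12. Of 23 S100, annexin and galectin genes 8 were higher and 4 lower. Lgals3 rose by 3.33 ± 0.29 and Anxa4 by 2.42 ± 0.19, against the falls of S100a8 and S100a9 given above.

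Most proliferation genes were not called, as held for most of all genes. Of 46 mitosis genes 4 were higher and 2 lower, with a median of -0.20, and of 35 DNA replication genes 6 were higher and 2 lower, with a median of 0.09, where 10.6% of all genes were higher and 10.1% lower. Racgap1, a cytokinesis protein, rose by 1.70 ± 0.15, Melk by 1.49 ± 0.19, Prc1 by 1.05 ± 0.18 and the helicase subunit Mcm6 by 1.25 ± 0.12, while Mcm7 fell by 0.67 on the log2 scale (SE 0.11). Of the other Racgap1 and Mcm6 probe sets, 1 of 2 shared the call in each case. In CD62Lhi PSGL1hi cells, against the same naive arrays, 36 of the 46 mitosis genes were higher, and in CD62Llo PSGL1lo cells 19 were lower. The 3 comparisons share the naive arrays and are given side by side only.

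Metabolic genes differed by list, and their counts stand beside 10.6% of all genes higher and 10.1% lower. Of 37 respiratory chain genes none was higher and 1 lower, with a median of -0.07, which is that of all genes. Of 20 cholesterol synthesis genes 10 were lower and 2 higher, with a median of -0.47. Idi1 had ratios of 0.813, 0.807 and 0.754 against 2.12, 1.83 and 1.68 (-1.24 ± 0.15), and Mvd (-1.19 ± 0.15), Hmgcs1 (-1.04 ± 0.18), Tm7sf2 (-1.02 ± 0.14) and Sqle (-0.79 ± 0.12), which act at successive points from acetyl groups to sterols, fell too. Fdps was lower on its main probe set (-1.20 ± 0.11) and at 0.07 on another. Of 23 glycolysis genes 6 were higher and 4 lower. Hif1a, the oxygen-regulated transcription factor, rose by 1.66 ± 0.15, and Pdk1, which keeps pyruvate out of mitochondria, fell by 1.35 on the log2 scale (SE 0.11). Of 28 cytosolic ribosomal protein genes 8 were lower and none higher, by a median of -0.18. Rpl12 fell by 1.03 on the log2 scale (SE 0.11), and Rps9 (-0.77 ± 0.12) was at -0.30 and not called (adjusted p = 0.0938) when its probe sets were averaged. Of 26 unfolded protein response genes 8 were higher and 1 lower, led by Atf6 (2.16 ± 0.10, and 0.67 and 1.98 on other probe sets).

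Interferon response genes split. Of 42 genes 17 were lower and 7 higher, with a median of -0.33, where 10.1% of all genes were lower and 10.6% higher. Among the lower were Oas2, an antiviral sensor of double-stranded RNA, with ratios of 0.933, 0.816 and 1.03 against 13, 14.1 and 13. Usp18, which ends interferon receptor signalling, had ratios of 0.901, 0.831 and 1.12 against 7.25, 7 and 6.61 (-2.88 ± 0.23). Ifit3, an inhibitor of viral RNA, had ratios of 0.923, 0.926 and 1.28 against 3.45, 3.22 and 2.94 (-1.63 ± 0.16). Naive arrays were above all CD62Llo PSGL1hi arrays in these 3 genes. The neutrophil granule genes described above were also high in the naive arrays, and their part in the interferon genes was not tested. The higher genes included the membrane antiviral factors Ifitm1, with ratios of 5.97, 5.12 and 11.1 against 0.227, 0.206 and 0.216 (5.01 ± 0.33), and Ifitm2, with 2.58, 2.48 and 4.85 against 0.331, 0.359 and 0.319 (3.23 ± 0.33). The third CD62Llo PSGL1hi array was the highest in both.

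The promoters of genes on each side are shown because the core motif of the interferon-stimulated response element was found upstream of genes that fell and of genes that rose. The core motif was searched as GAAANNGAA on both strands, in RefSeq promoters of GRCm38.p6 from 250 bases before to 50 after the start site. It was held by 8.70% of the 14452 tested genes with a promoter, by 5 of the 7 higher interferon genes, by 4 of the 12 lower ones with a promoter and by 9 of the 12 that were not called. The 160 bases before the start site are printed for Ifit3 and Ifit1, which were lower, and for Ifitm2 and Gbp3, which were higher. Ifit1 (-1.34 ± 0.15) and Gbp3 (1.22 ± 0.17) were picked after their values were seen. Capitals mark matches, which may overlap and are a description, not sites of binding. The windows are chr19:34583369-34583528 on the plus strand (Ifit3), chr19:34640729-34640888 on the plus strand (Ifit1), chr7:140955962-140956121 on the minus strand (Ifitm2) and chr3:142559884-142560043 on the plus strand (Gbp3).
Ifit3: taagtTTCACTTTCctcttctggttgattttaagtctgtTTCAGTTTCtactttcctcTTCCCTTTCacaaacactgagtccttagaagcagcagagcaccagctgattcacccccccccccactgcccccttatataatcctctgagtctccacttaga
Ifit1: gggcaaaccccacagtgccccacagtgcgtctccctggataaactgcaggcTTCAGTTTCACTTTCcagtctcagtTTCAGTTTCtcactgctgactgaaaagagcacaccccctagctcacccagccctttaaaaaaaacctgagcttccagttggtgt
Ifitm2: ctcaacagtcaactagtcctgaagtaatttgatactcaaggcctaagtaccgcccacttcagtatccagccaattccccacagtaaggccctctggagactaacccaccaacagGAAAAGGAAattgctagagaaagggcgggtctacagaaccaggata
Gbp3: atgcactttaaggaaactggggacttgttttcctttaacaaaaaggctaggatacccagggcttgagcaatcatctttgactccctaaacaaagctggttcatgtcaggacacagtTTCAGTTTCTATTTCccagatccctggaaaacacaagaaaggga
The matches begin 155, 121 and 102 bases before the start in Ifit3, 109, 103 and 84 in Ifit1, 46 in Ifitm2, and 44 and 38 in Gbp3.

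**Figure D4:**
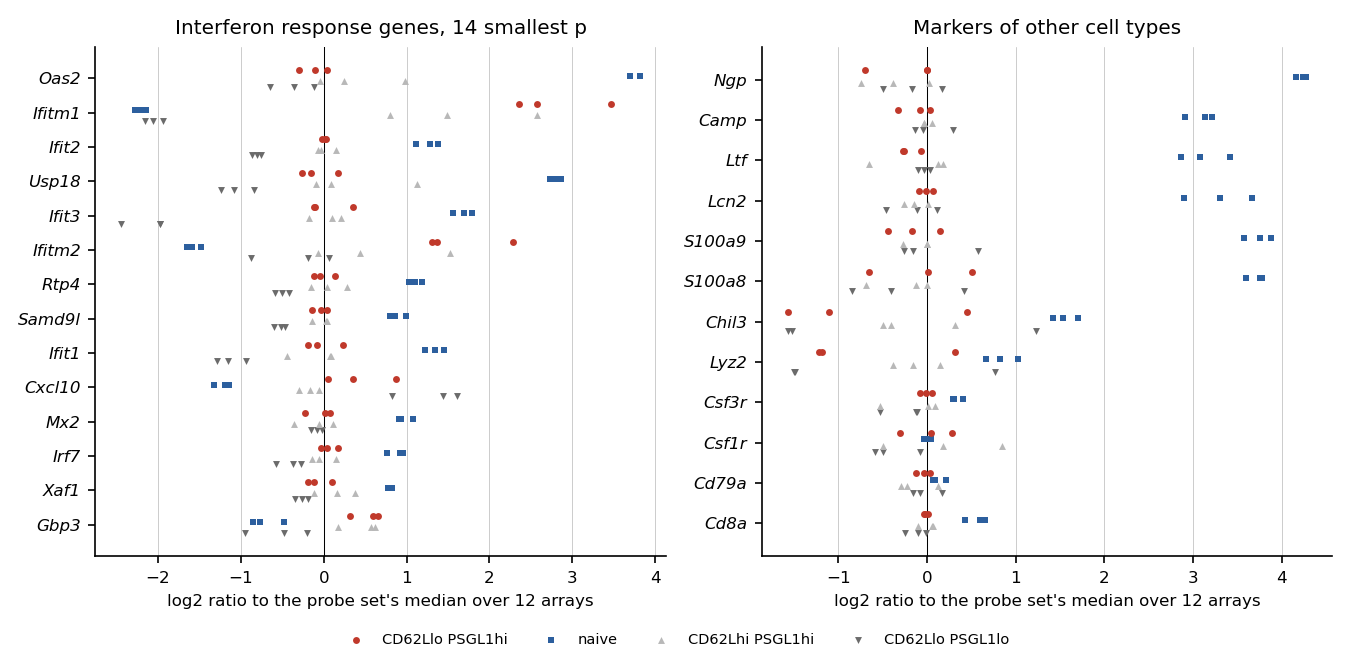
Log2 ratios on each of the 12 arrays, 3 points per population, of the 14 called interferon response genes with the smallest p (left) and of 12 markers of other cell types (right). The blue naive points are the highest for Oas2, Usp18 and Ifit3 and the lowest for Ifitm1 and Ifitm2, and they stand far above the others for the granule genes from Ngp to S100a8.

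Markers of other cell types went in both directions, and their counts stand beside 10.6% of all genes higher and 10.1% lower. Of 17 B cell markers 4 were higher and 2 lower, with a median of -0.17 and summed ratios of 16.0 to 18.4 in CD62Llo PSGL1hi and 16.2 to 16.7 in naive cells. The antigen presentation genes H2-Eb1 and Cd74 were among the higher ones, by 1.91 ± 0.24 and 1.65 ± 0.21, as was Cd22 (1.43 ± 0.19, 0.40 and not called on its other probe set). Of 7 plasma cell markers 4 were higher, with summed ratios of 8.33 to 9.92 against 4.02 to 4.12. They were Jchain, the joining chain of secreted antibodies (3.31 ± 0.26), Mzb1 (1.00 ± 0.23), and Irf4 and Slamf7, which activated T cells also express. Sdc1 and Xbp1 differed by 0.21 ± 0.15 and 0.18 ± 0.11 and were not called. On their most variable probe sets they differed by 0.77 and 0.82 (adjusted p = 0.00138 and 0.000576). The part of plasma cells in the raised genes was not tested. Of 15 dendritic cell markers 4 were higher, with Cd83 at 3.97 ± 0.19, and summed ratios of 15.2 to 16.5 against 13.6 to 14.1. Of 12 erythroid and platelet markers none was higher and 4 lower, and of 15 stromal and endothelial markers none was higher and 1 lower, which was Pecam1 (-1.33 ± 0.16), a gene that naive T cells also express. Cd68, a lysosomal glycoprotein that macrophages hold in large amounts, was 3.02 ± 0.16 higher, while Csf1r, named after its value was seen, differed by -0.01 ± 0.24.

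Which genes set CD62Llo PSGL1hi cells apart from all other populations was tested by requiring a difference from naive, from CD62Lhi PSGL1hi and from CD62Llo PSGL1lo cells, the last 2 sorted from the aged mice too. By this intersection-union test in the same limma fit, 21 genes (0.115%) were highest and 3 (0.0165%) lowest in CD62Llo PSGL1hi cells at an adjusted p under 0.05, and 155 and 69 at an unadjusted p under 0.05. Adam8, a metalloprotease that sheds surface proteins, had ratios of 4.47, 3.79 and 5.67 in CD62Llo PSGL1hi cells. Naive arrays lay at 0.734, 0.824 and 0.814, CD62Lhi PSGL1hi arrays at 1.56, 1.17 and 1.4 and CD62Llo PSGL1lo arrays at 0.785, 0.66 and 0.826 (intersection-union adjusted p = 6.23e-05). Cxcr6 was 2.48 above CD62Lhi PSGL1hi and 2.38 above CD62Llo PSGL1lo cells on the log2 scale (intersection-union adjusted p = 2.77e-04). Both genes were highest on all 3 arrays of the population.

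Trgv1, a variable segment of the T cell receptor gamma locus, had ratios of 9.36, 5.51 and 9.1 in CD62Llo PSGL1hi cells. Its naive ratios were 0.768, 0.76 and 0.699. On any array of the other populations it was at most 2.18 (intersection-union adjusted p = 6.47e-05). Of 5 gamma-delta and innate-like T cell markers it was the 1 higher; Zbtb16, which defines innate-like T cells, differed from naive by -0.21 ± 0.13, and the summed ratio was 9.18 to 13.4 against 5.02 to 5.51 in naive cells. The part of such cells in the rise of Trgv1 was not tested. Cdh1 is the gene of E-cadherin, a ligand of KLRG1 and CD103. Its ratios were 4.8, 2.82 and 2.68 in CD62Llo PSGL1hi cells, against 0.93, 0.981 and 0.99 in naive cells (intersection-union adjusted p = 4.15e-04). The first array was the highest. Tmem163, a zinc transporter, Oplah, an enzyme of glutathione turnover, Il18rap, the lysophosphatidic acid receptor Lpar6, Crim1 and Klrd1 completed the 10 named genes. Their intersection-union adjusted p ran from 1.18e-04 to 0.0254. The lowest were Nsg2, a member of the naive list (ratios 0.539, 0.533 and 0.511), Tubb2b, a tubulin (0.333, 0.366 and 0.274), and Lef1. Their intersection-union adjusted p was 0.00304, 0.00325 and 0.0254. The count of highest genes fell to 9 without replicate 1 or 3 of CD62Llo PSGL1hi cells and to 10 without naive replicate 2. It was 47 after quantile normalization.

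**Figure D5:**
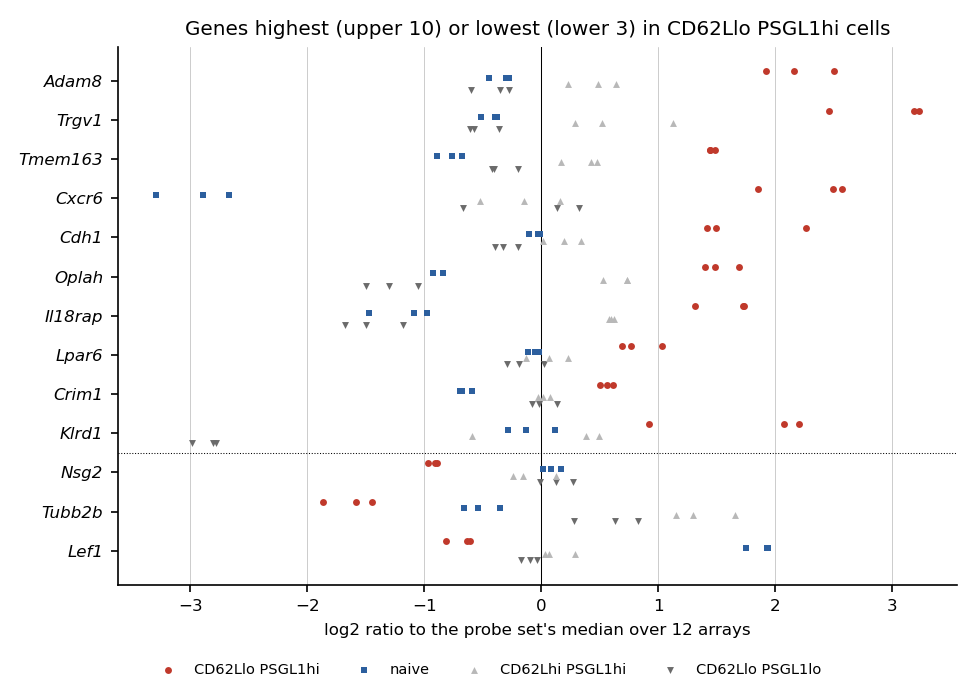
Log2 ratios on each of the 12 arrays of the 10 named genes highest and the 3 genes lowest in CD62Llo PSGL1hi cells, 3 points per population. The red points lie to the right of all others from Adam8 to Klrd1 and to the left of all others for Nsg2, Tubb2b and Lef1. The genes were picked by the test for the highest or lowest population, so this order is not separate evidence.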

How the data were processed

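RNA of 12 Affymetrix mouse arrays was measured, 3 for each of 4 sorted CD4 T cell populations. The authors deposited linear ratios; the submitters' processing notes name MAS5, with version and scaling not given in the sources used here. The deposited ratios themselves show that each is a signal divided by the probe set's median over the 12 arrays (within 0.002 of 1 for 99.7% of 45101 probe sets). No detection call was used, so neither a pseudocount nor a filter on dim probe sets was applied, and how dim signals were treated upstream, which sets the size of large folds, is unknown.

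The platform annotation gave 1 symbol to 34945 probe sets, several to 932, and 9160 were not listed. For each of 18193 genes the probe set without a cross-hybridisation suffix and with the lowest number was kept (16591 genes), or else the lowest numbered one (1602 genes); 9010 genes had several. Entrez identifiers matched 18032 genes in RefSeq.

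Log2 ratios were fitted with limma 3.58.1 (lmFit, eBayes, R 4.3.3, version 1.17.8 of data.table) on all 12 arrays with 1 mean per population, 8 residual and 7.27 prior degrees of freedom; tests were two-sided, and the fit was tested on simulated data. The highest or lowest population was tested by the largest of 3 pairwise p-values, adjusted over all genes. Named genes were the gate genes and Fas, the 15 largest rises and 15 largest falls among called genes with ordinary symbols and no overlap of arrays, up to 6 members per list with the smallest p, up to 10 genes highest and 5 lowest in the population, and the T cell state genes; others are said to be chosen after their values were seen. Members, lists, T cell state genes (fixed by symbol) and the promoter motif were chosen with earlier results of these data known. For CD62Llo PSGL1hi cells the description field gives a different gate; titles and design text were followed. Alternatives changed the scaling, the probe set, the arrays, the weights, the variance prior and the block. Figures and promoter windows were made with Python 3.11.15, pandas 2.3.3 and matplotlib 3.10.9.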

Additional observations from a re-analysis of the deposited data

Results flagged for a closer look

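In 16 named genes CD62Llo PSGL1hi cells and another CD44+ population differed from naive cells in opposite directions, both called. The difference between the 2 CD44+ populations was tested in the same limma fit. Its value is given as log2 of CD62Llo PSGL1hi minus the other population.

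Against CD62Lhi PSGL1hi cells this held for Tubb2b, a tubulin gene (-3.00), and Cdc20, an activator of the anaphase complex (-1.39). Over all genes it held for 7, each lower in CD62Llo PSGL1hi cells. The fall of Cdc20 against naive cells was not called when single arrays of either population were left out.

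Against CD62Llo PSGL1lo cells it held for 82 genes, 20 of them lower in CD62Llo PSGL1hi cells. Of the named genes, Klrd1, the CD94 receptor gene, differed by 4.59, the transcription factor genes Eomes and Foxp3 by 4.43 and 3.74, the cathepsin gene Ctsw by 3.45, Oplah by 2.81, the cytokine signal inhibitor gene Cish by 2.39, the tyrosine sulfotransferase gene Tpst2 by 1.73, the spindle gene Prc1 by 1.62, Irf8 by 1.29 and Cd79b by 1.03. Lower were Tubb2b (-2.21), the sterol reductase gene Tm7sf2 (-1.90), the Fc receptor gene Fcmr (-1.82), the amino acid transporter gene Slc16a10 (-1.71) and Pfkfb4 (-1.27), a regulator of glycolysis. The calls of Cd79b and Fcmr against naive cells were lost when single arrays were left out.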

How the results depend on the processing

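Over 22 alternatives, 12 of them leaving out 1 array, 214 of 245 called named genes kept direction and call, 31 lost the call in at least 1 and none reversed; of 33 not called, 20 passed in at least 1. The 3774 calls ranged from 2856 without naive replicate 2 to 5354 with array weights, which raised the lower ones to 2883. Quantile normalization left 469 rises and 299 falls past 2-fold and gave 47 genes highest and 13 lowest in CD62Llo PSGL1hi cells; array weights gave 5 lowest. Without single arrays the highest ranged from 9 to 21 and the lowest from 2 to 4. The share of higher calls moved from 51.2% to between 46.2% and 58.7%.

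Same-numbered CD62Llo PSGL1hi and naive arrays correlated at 0.128, -0.0394 and 0.156. Differently numbered ones ran from -0.230 to 0.111, so these few values do not decide whether arrays were paired by number. Pairing with the arrays of the other populations was not examined. A replicate block gave 4383 calls, 34 highest and 9 lowest genes.

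Of 111 called named genes with several probe sets, 56 had at least 1 that did not share the call, and 2 had an opposite one. A pseudocount and a filter on dim signals were not run, as the values are ratios, and the fit of 6 arrays could not give highest or lowest genes. A choice that prefers RefSeq targets, added after the data were seen, gave 3784 calls. Signal over background is unknown for all probe sets.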

Other observations

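Counts of further gene lists against naive cells are read beside those of all genes, of which 10.6% were higher and 10.1% lower. Of 19 death receptor and caspase genes 7 were higher and 2 lower, with a median of 0.16: the TNF receptor gene Tnfrsf1b rose by 2.60 ± 0.19 (0.17 on its other probe set, not called) and the adaptor gene Traf1 by 1.63 ± 0.13. Of 13 RGS genes, which shorten signals of G protein coupled receptors, 3 were higher and 4 lower. Rgs16 rose by 3.37 ± 0.20, with 1 of 2 other probe sets sharing the call, whereas Rgs10 and Rgs11 were at -1.51 ± 0.16 and -1.12 ± 0.10. Of 11 purinergic genes 4 were higher and 3 lower: beside Entpd1, which degrades extracellular ATP, the adenosine deaminase gene Ada was at -1.32 ± 0.13 and the nucleotide sugar receptor gene P2ry14 at -1.05 ± 0.12. Of 16 STAT and SOCS genes 5 were higher and none lower, with a median of 0.13; the feedback inhibitors Socs2 and Cish rose by 0.88 ± 0.12 and 0.85 ± 0.12, and of 5 other Socs2 probe sets, which ran from 0.14 to 3.06, 4 shared the call. Of 25 chromatin enzyme genes 5 were higher and 3 lower, among the latter the DNA demethylase gene Tet1 (-1.17 ± 0.12, 2 of 3 other probe sets sharing the call). Of 23 TGF beta and Wnt pathway genes 3 were higher and 4 lower, and of 12 amino acid transporter genes 3 were higher and 2 lower. The medians of these last 3 lists were -0.08, -0.15 and 0.01, and with so few genes their counts are given as values and not as a result about the lists.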
